A study of Gallus gallus with 2 samples.

Results

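The genes described here encode 9 transcriptional regulators of hair cell (HC) fate, ATOH1, POU4F3, GFI1, LHX3, BARHL1, INSM1, EYA1, RFX3 and RFX7. They were taken by symbol from the deposited expression files, and because the symbol POU4F3 names a pair of gene IDs, which were kept apart, the set holds 10 of the 23842 gene IDs in the files. All 10 had at least 1 TPM in one library or the other, as did 13321 gene IDs in all. RNA came from basilar papillae (BPs), the auditory sensory epithelium of birds, of male Momiji chicks at posthatch day 1, taken as explants. The medium for culture held penicillin. The SM0 library is from explants before damage, at 0 h, the start of SM exposure, without the hours of culture of the other library. The post-SM6 library is from explants that were exposed for 48 h to streptomycin (SM), an antibiotic of the aminoglycoside class that is toxic to HCs, and then cultured for 6 h without it, 54 h after the start of exposure. Each library is 1 pool of 50 BPs from which surrounding tissue had been removed with thermolysin. The libraries thus hold no replicate check for any value below, and no p-value or error can be given. Explants cultured for the same time without SM were not analysed here, so SM, time in culture and the choice of animals cannot be told apart as sources of a difference.

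ATOH1 is a basic helix-loop-helix (bHLH) factor that starts HC formation, and in the mouse its loss leaves the inner ear without HCs. Downstream of it, the POU-homeodomain factor POU4F3 and the zinc finger repressor GFI1 are needed for mouse HCs to mature and survive, and POU4F3 is upstream of GFI1 there. In birds, HCs lost to damage are replaced by supporting cells (SCs), which switch ATOH1 on again and become HCs either directly or after a division. Expression is given as TPM, a gene's share of all transcripts in a library after division by transcript length and scaling to a fixed sum, so that levels of different genes can be set side by side. TPM keeps no sequencing depth, and the read counts behind the values were not analysed here. The log2 change of a gene is the log2 of its TPM at post-SM6 over its TPM at SM0, with 0.1 added to both, a scale on which weakly expressed genes appear less changed than they are. A gene is called higher or lower where this value passes the log2 of a fold of 1.3, which is 0.379. The study asked for the same fold of a differentially expressed gene, but on normalized read counts and together with further thresholds. Calls here use TPM and no test, so they are not the calls of the study.

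Of the 10 gene IDs, 2 were higher at post-SM6 (ATOH1 and INSM1), 6 were lower (both IDs named POU4F3, GFI1, LHX3, BARHL1 and RFX7), and EYA1 and RFX3 were less than 1.3-fold apart. Among all 13321 genes with at least 1 TPM in either library, 47.2% passed the same fold, 23.9% as higher and 23.3% as lower, so passing it is common and the size of a change tells more than its call. With a fold of 2, the set had 2 higher and 4 lower IDs, where 17.4% of all genes passed, 9.56% as higher and 7.83% as lower. The median log2 change of the set was -0.76, against -0.02 over all genes tested. In the plot of TPM by gene, the set splits into 2 genes that move right, 6 IDs that move left and 2 genes that stay in place.

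**Figure D1:**
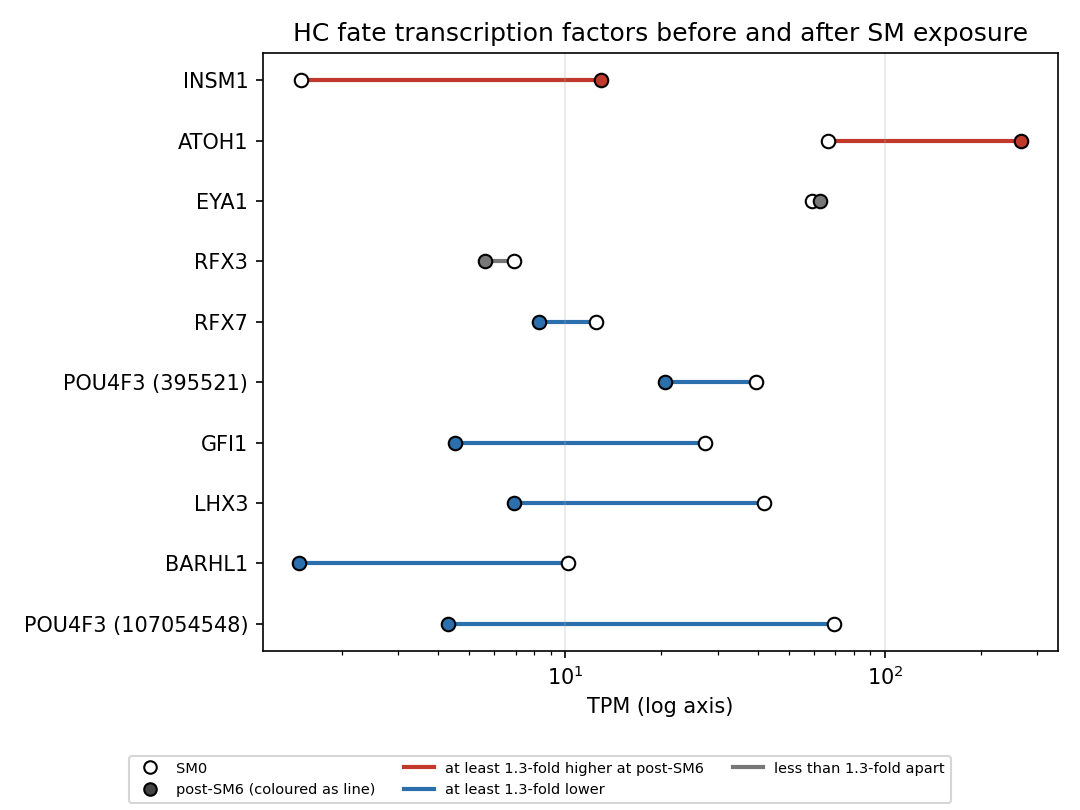
TPM (log axis) of the 10 gene IDs at SM0 (open circles) and post-SM6 (filled circles), 1 library each, ordered by log2 change and coloured by the fold of 1.3. INSM1 and ATOH1 lie higher at post-SM6, EYA1 and RFX3 hardly move, and the POU4F3 gene with ID 107054548 has the longest line to the left, from 69.3 to 4.31 TPM.

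ATOH1 (gene ID 101750213) had 66.5 TPM in the SM0 library and 267 TPM in the post-SM6 library, 4.02-fold higher. By quantitative PCR on replicate samples, the study also reported more ATOH1 midway through SM exposure and at its end than at SM0. The folds were larger, and they were taken relative to the gene HPRT1 rather than as TPM. Those samples did not include post-SM6, and at an earlier time of exposure no significant rise was found. Midway through exposure and at its end, the study saw intense ATOH1 signal in SCs by in situ hybridization. At SM0 it saw the transcript in only a few SCs at the neural edge of the BP. ATOH1 is compared by level and by change below. In these libraries it already ranked 1985th of 23842 gene IDs by level at SM0, second in the set, and it ranked 482nd at post-SM6. Its log2 change of 2.01 was exceeded by 386 of the 13321 genes, or 2.90% of them. The gain was 201 TPM, and ATOH1 went from 19.9% to 67.7% of the summed TPM of the 10 IDs. The sum itself was 334 TPM before and 394 TPM after SM. Without ATOH1, which had the largest gain in TPM of the set, it was 268 and 127 TPM.

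INSM1 (gene ID 107052848), a zinc finger repressor that in the mouse cochlea keeps young outer HCs from taking on features of inner HCs, went from 1.49 to 12.9 TPM. This 8.69-fold difference gave the largest log2 change of the set toward post-SM6, 3.04, which 120 of the 13321 genes exceeded (0.901%). In the SM0 library the gene was the least abundant of the 10, and 9.37% of the genes tested had a lower level, whereas 3 members were more abundant at post-SM6. Its level stayed far below that of ATOH1 in both libraries, with ATOH1 at 44.6 times its TPM at SM0 and 20.6 times at post-SM6. Because the SM0 level is close to 1 TPM, the log2 change depends on the pseudocount, and it was 2.49 with a pseudocount of 1.

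The gene ID 107054548, which the files and RefSeq both name POU4F3, had the steepest decrease. It was the most abundant member at SM0, with 69.3 TPM, just above ATOH1, and it had 4.31 TPM at post-SM6, which is 6.22% of its SM0 level. The log2 change was -3.98, and 72 of the 13321 genes had a lower one (0.541%). The ratio of ATOH1 to this gene thus went from 0.959 at SM0 to 62.0 at post-SM6, the libraries differing from near parity to a large excess of ATOH1.

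The other ID named POU4F3 in the files, 395521, behaved differently. Its level was 39.4 TPM before and 20.5 TPM after SM, so that 52.0% of its level was left, and its log2 change was -0.94. The RefSeq table of GRCg7b calls this gene POU4F1L and lists Brn-3a, an old name of POU4F1, among its synonyms. Under that name it would be a relative of POU4F1, and the protein sequences were not compared here. At post-SM6 it was the third most abundant ID of the set, above the gene that RefSeq calls POU4F3. Were the TPM of both IDs summed, the symbol would have 109 TPM before and 24.8 TPM after SM and a log2 change of -2.13, a value that neither gene has. Whether reads were shared between these related genes was not tested.

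GFI1, LHX3 and BARHL1 were lower by similar factors. GFI1 (gene ID 429088) had 27.4 TPM before and 4.52 TPM after SM, 6.05-fold lower. LHX3 (gene ID 373940), a LIM-homeodomain factor found in HCs, had 41.7 and 6.93 TPM, 6.02-fold lower. BARHL1 (gene ID 429598), a homeodomain factor that mouse HCs need for their long-term survival, had 10.2 and 1.47 TPM, 6.95-fold lower. Their log2 changes of -2.57, -2.57 and -2.72 lay close together, although LHX3 was the most and BARHL1 the least abundant of them in both libraries, and between 216 and 241 of the 13321 genes had lower values. With the POU4F3 gene of ID 107054548, these genes summed to 149 TPM before and 17.2 TPM after SM.

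EYA1, RFX3 and RFX7 had smaller differences. EYA1 (gene ID 395718), a transcriptional coactivator and phosphatase that acts from the earliest stages of the inner ear, had 59.1 TPM before and 62.7 TPM after SM, a log2 change of 0.09. RFX3 (gene ID 427351), a winged-helix factor that drives genes of cilia, had 6.93 and 5.62 TPM, with -0.30. RFX7 (gene ID 431530), from the same DNA-binding family, had 12.5 and 8.27 TPM, and its log2 change of -0.59 passed the fold of 1.3 by a small margin, while 15.2% of all genes tested had a lower one. EYA1 was the third most abundant member at SM0 and the second at post-SM6, while both RFX genes were among the 4 least abundant at SM0.

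The order of levels turned over between the libraries. At SM0 it ran from POU4F3 (107054548), ATOH1 and EYA1, all between 59.1 and 69.3 TPM, through LHX3, POU4F3 (395521) and GFI1, to RFX7, BARHL1, RFX3 and last INSM1. At post-SM6 ATOH1 led, with 4.26 times the TPM of EYA1, which came next. Then followed POU4F3 (395521), INSM1, RFX7, LHX3, RFX3, GFI1, POU4F3 (107054548) and BARHL1. With 1 library per time point, whether neighbours in these orders differ beyond the spread between pools is unknown. In the scatter of all genes, the 4 strongly lower members lie along the lower edge of the cloud and ATOH1 and INSM1 along its upper edge.

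**Figure D2:**
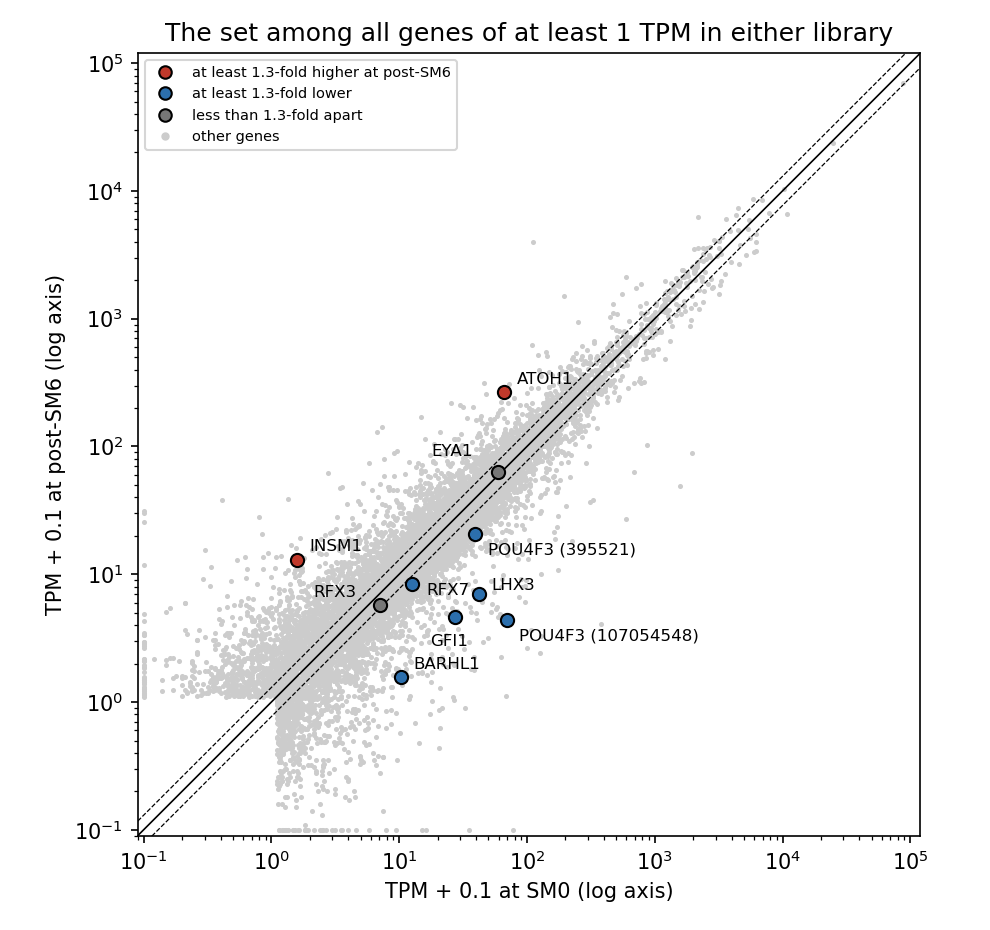
TPM + 0.1 at SM0 (x axis) against post-SM6 (y axis), both on log axes, for the 13321 genes with at least 1 TPM in either library (grey), with the 10 gene IDs of the set coloured by the fold of 1.3. The solid line marks equal values and the dashed lines a fold of 1.3; INSM1 and ATOH1 lie above the lines, EYA1 and RFX3 within them and the other members below.

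The labels describe the SM0 sample as HCs and SCs and the post-SM6 sample as SCs, and both were checked with markers. A list of 25 HC genes, such as those of the stereocilia, of mechanotransduction and of the HC synapse, had 24 in the files. At post-SM6, 22 of these 24 were lower, 1 was higher and 1 was less than 1.3-fold apart, with a median log2 change of -3.04. None of the 24 was listed at 0 in either library, and their summed TPM was 3659 at SM0 and 478 at post-SM6. Much of each sum came from few genes. OCM alone had 1966 TPM at SM0. At post-SM6, OCM (88.4 TPM), MYO6 (86.6 TPM) and USH1C (72.8 TPM) were the most abundant, and USH1C had not passed the fold. Transcripts of the list were thus scarcer at post-SM6 but present. In bulk RNA alone, fewer HCs and less RNA per HC cannot be told apart. In stained sections of other explants, the study counted virtually no HCs over a span of time points that includes post-SM6. The 19 SC genes, in contrast, had a median log2 change of 0.02, with 7 higher and 5 lower. Of these 19, 63.2% passed the fold, beside 47.2% of all genes.

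Set against the 24 HC genes, the members took separate places. The POU4F3 gene of ID 107054548 was lower than the median HC gene by 0.93 on the log2 scale, and 5 of the 24 had a lower value than it. BARHL1, LHX3 and GFI1 were above the HC median by 0.33, 0.47 and 0.47, with 15, 16 and 16 HC genes lower. The HC gene ESPN, which encodes an actin bundler of stereocilia, went from 175 to 28.7 TPM and lay within 0.11 of each of these members in log2 change, as did POU4F1. The gene of all lists nearest to the POU4F3 gene of ID 107054548 was NEFM, which encodes a neurofilament subunit and is on the neuron list (96.8 and 6.00 TPM). It was followed by the HC genes MYO3A (20.9 and 1.18 TPM) and MYO15A (38.2 and 2.16 TPM), which encode unconventional myosins. POU4F3 (395521) and RFX7 had 21 of the 24 HC genes below them, RFX3 had 22 and EYA1 had 23. These comparisons rest on 2 libraries and 24 genes and describe the values only.

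Markers of other cells also differed between the libraries. All 10 fibroblast genes were higher at post-SM6, with a summed TPM of 48.2 at SM0 and 397 at post-SM6, and so were all 9 leukocyte genes, with 35.8 and 115 TPM. Most of the leukocyte sum was CD74, with 30.5 and 91.4 TPM. The leukocyte genes other than CD74 and CSF1R, and the fibroblast gene TWIST1, were under 1 TPM at SM0. They were tested only because of their post-SM6 level, so they could not come out lower. Of 9 neuron genes with at least 1 TPM in either library, 6 were lower and 2 higher, and the 11 neuron genes in the files summed to 474 and 164 TPM. Glial genes were lower in 4 of 8 cases and higher in 2, with sums of 171 and 131 TPM. The shares past the fold were 88.9% of the neuron genes tested and 75% of the glial genes, beside 47.2% of all genes. No marker of these 4 lists was at 0 except STMN2, which encodes a neuronal tubulin-binding protein and was listed at 0 at post-SM6 and at 0.14 TPM at SM0. INSM1, POU4F1 and ISL1, for example, are also known from neurons, and the part that other cells played in the members' values was not tested. This holds for the lower members too, such as both POU4F3 IDs, LHX3 and BARHL1, as most neuron genes tested were also lower.

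Other genes of each member's pathway were taken from lists. ATOH1 binds DNA together with an E protein, and ID proteins hold E proteins back. The 3 E protein genes were less than 1.3-fold apart except TCF12, with 101 and 138 TPM and a log2 change of 0.45. TCF3 had 50.1 and 46.5 TPM, and TCF4, named TCF4Z in the files, had 13.7 and 11.8 TPM. All 4 ID genes were abundant and none passed the fold, with ID2 at 964 and 907 TPM and ID4 at 600.2 and 633 TPM. Apart from TCF12, the E protein and ID genes were thus within 1.3-fold of their SM0 level where ATOH1 was 4.02-fold higher.

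Genes of the HES and HEY families, which apart from HES6 encode repressors that act downstream of Notch against ATOH1, varied in direction. HES6, which opposes HES1 and in the mouse is switched on in young HCs, had 1.10 TPM before and 13.7 TPM after SM, the highest log2 change of the list at 3.52. HES5 had 3.55 and 5.35 TPM, HEY2 had 40.7 and 24.9 TPM, and HES1 (33.4 and 27.0 TPM) and HEY1 (532 and 585 TPM) did not pass the fold. SOX2, an SC and progenitor factor that is upstream of Atoh1 in the mouse cochlea, went from 146 to 77.2 TPM. NEUROD1, a neurogenic bHLH gene, had the lowest value of the list, with 5.60 and 0.53 TPM. In the whole list of partners and inhibitors, 3 of the 16 genes tested were higher and 3 lower. The share past the fold was 37.5%, beside 47.2% of all genes, and the median log2 change of the list was 0.03.

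Among the homeodomain and LIM genes related to POU4F3, LHX3 and BARHL1, several abundant ones hardly differed between the libraries. ISL1 and ISL2, LIM-homeodomain genes, had 112 and 103 TPM and 85.4 and 82.2 TPM, with log2 changes of -0.12 and -0.05. LMO4, a LIM-only gene that competes for LDB1, had 117 and 102 TPM. LDB1 itself, the adaptor that joins LIM-homeodomain factors into complexes, was lower, with 51.4 and 38.4 TPM and a log2 change of -0.42. LHX4, the nearest relative of LHX3, was at 0.16 and 0.14 TPM, and BARHL2 was listed at 0 in both libraries. POU4F1 (gene ID 100857623) had 1.93 and 0.22 TPM, and POU4F2 was listed at 0. In the pairs of LHX3 with LHX4 and of BARHL1 with BARHL2, the member was thus the gene with more transcripts in both libraries.

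Other genes of this group were higher at post-SM6. LMX1A, a LIM-homeodomain gene of the developing inner ear, had 5.27 and 14.0 TPM, LMX1B 0.94 and 2.02 TPM, and BARX2, a homeodomain gene, 3.41 and 11.1 TPM, which gave the highest log2 change of the list, 1.67. Of 28 gene IDs in the list, 18 reached 1 TPM in a library, of which 4 were higher and 6 lower. The share past the fold was 55.6%, and 42.9% without the members of the set, beside 47.2% of all genes. The median log2 change was -0.14, and without the members of the set it was -0.01. The plot of paralogues shows the nearly unmoved ISL genes beside the shifted POU4 genes and LHX3.

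**Figure D3:**
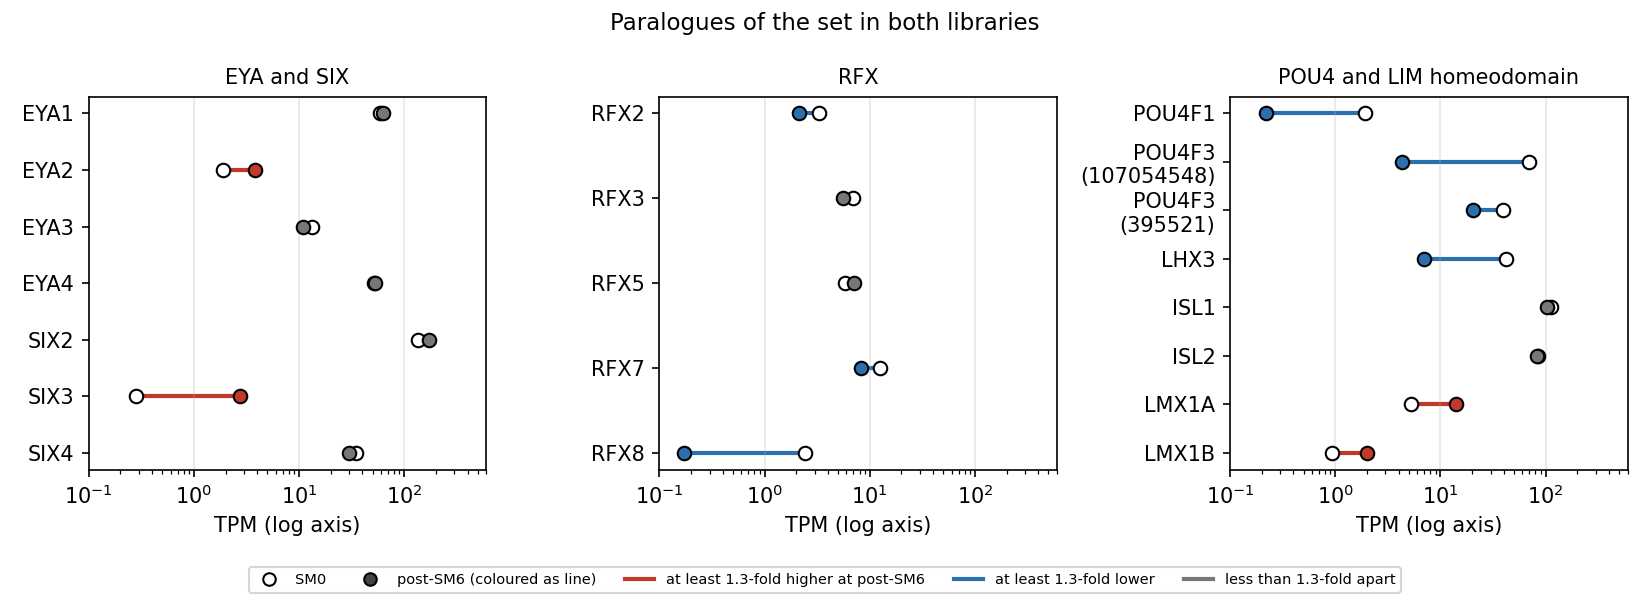
TPM (log axis) at SM0 (open circles) and post-SM6 (filled circles) of genes related to EYA1, to the RFX members and to POU4F3 and LHX3, among those with at least 1 TPM in either library. EYA1, EYA4 and the ISL genes hardly move, RFX8, LHX3 and the POU4 genes move left, and SIX3, EYA2 and the LMX1 genes move right.

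GFI1 and INSM1 both recruit the histone demethylase KDM1A and the CoREST proteins through similar short domains at their N-terminal ends. Most genes tested of this machinery did not pass the fold between the libraries, and no row was found for RCOR2. KDM1A had 47.2 and 45.0 TPM, HDAC1 149 and 119 TPM, HDAC2 128 and 118 TPM and RCOR1 28.2 and 35.3 TPM, all less than 1.3-fold apart. HMG20B, another subunit, had 57.4 and 80.5 TPM, a log2 change of 0.49. GFI1 was lower and INSM1 higher, and of the 7 other genes tested in the list 6 did not pass the fold. The share past it was 14.3% of these 7, beside 47.2% of all genes. The paralogues GFI1B and INSM2 were below 1 TPM in both libraries.

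EYA1 belongs to a network with DACH1, SIX2 and their relatives. Of 13 genes of this network, EYA1 included, with at least 1 TPM in either library, 3 were higher, 1 was lower and 9 did not pass the fold. The share past it was 30.8%, beside 47.2% of all genes, and the median log2 change was 0.09. SIX2, which encodes a homeodomain factor, had 136 and 174 TPM, and EYA4, whose human orthologue is a deafness gene, had 51.6 and 52.4 TPM. EYA1 and EYA4 were thus close in level in both libraries, and EYA3 (13.3 and 10.8 TPM) was lower than both. EYA2 had 1.88 and 3.82 TPM. PAX2, a marker of the otic placode, had 8.80 and 13.4 TPM, DACH2, a transcriptional cofactor, 7.81 and 5.43 TPM, and SIX3, known from the forebrain and eye, 0.28 and 2.73 TPM, the highest log2 change of the list at 2.90. The gene named SIX4 in the files had 35.1 and 29.6 TPM, and RefSeq calls it SIX5.

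RFX1 and RFX3 are needed together for the survival of mouse outer HCs. No row was found for RFX1. Of 8 genes tested in the RFX list, RFX3 and RFX7 included, 1 was higher and 3 lower. The share past the fold was 50%, beside 47.2% of all genes, and the median log2 change was -0.31. RFX2, a close relative of RFX3, had 3.30 and 2.14 TPM, with a log2 change of -0.60, next to the -0.59 of RFX7. RFX8, whose role is little known, had 2.40 TPM before and 0.17 TPM after SM, the lowest value of the list at -3.21. RFX5, which acts on MHC class II genes with RFXANK and RFXAP, had 5.85 and 7.14 TPM, and RFXANK, the gene of the list that was higher, had 10.3 and 14.4 TPM. RFX7 had the highest TPM of the numbered RFX genes in both libraries.

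Genes of cilia that in Caenorhabditis elegans are targets of the single RFX factor were counted beside the RFX group. All 12 had at least 1 TPM, and 2 were higher, 2 lower and 8 did not pass the fold, a share past it of 33.3% beside the same 47.2%. Their median log2 change was -0.11. IFT57, a subunit of the intraflagellar transport particle, had the lowest value, with 69.9 and 30.6 TPM, and DYNC2LI1, of the retrograde motor, had the highest, with 7.43 and 12.3 TPM. IFT88 had 11.1 and 10.5 TPM and IFT172 had 12.7 and 10.2 TPM. As with RFX3 itself, most of these genes were less than 1.3-fold apart.

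Other regulators known from HCs, counted without INSM1, which is on that list too, took both directions. Of 17 tested genes, 7 were higher and 6 lower, a share past the fold of 76.5% beside the 47.2% of all genes, with a median log2 change of -0.11. SRRM3 and SRRM4 encode related splicing factors that include microexons in neurons and HCs. SRRM3 had 3.85 and 0.31 TPM, with a log2 change of -3.27, and SRRM4 had 1.55 and 5.37 TPM, with 1.73, so the paralogue that was higher at SM0 was the lower one at post-SM6. MYT1, a neural zinc finger gene, had 6.71 and 0.55 TPM, the lowest log2 change of the list.

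Of the genes tied to HC subtypes in the mouse, IKZF2, an outer HC factor, had 11.7 and 6.85 TPM. TBX2, an inner HC factor, had 3.46 and 8.32 TPM. HMX3, a homeodomain gene of the vestibular organs, had 2.27 and 11.5 TPM, a log2 change of 2.29 that was among the 3 nearest to that of ATOH1 in the lists. GATA3, needed for the prosensory domain, had 87.5 and 117 TPM. The SoxC genes SOX4 and SOX11, which promote HC formation in the mouse, had 33.1 and 50.8 TPM and 35.2 and 24.6 TPM, in opposite directions.

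In the plot of log2 changes by list, INSM1 and HES6 stand at the far right of the lists they belong to. The 3 genes whose change lay nearest to that of INSM1, among 157 candidate genes of all lists, were C1QC (0.61 and 5.22 TPM), SIX3 and DCN (3.78 and 35.1 TPM), a leukocyte gene, a homeodomain gene and a fibroblast gene. For ATOH1 they were C1QA (0.74 and 3.34 TPM), SRRM4 and HMX3. Likeness here is the smallest difference in log2 change over 2 libraries, and genes of quite different levels can share it.

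**Figure D4:**
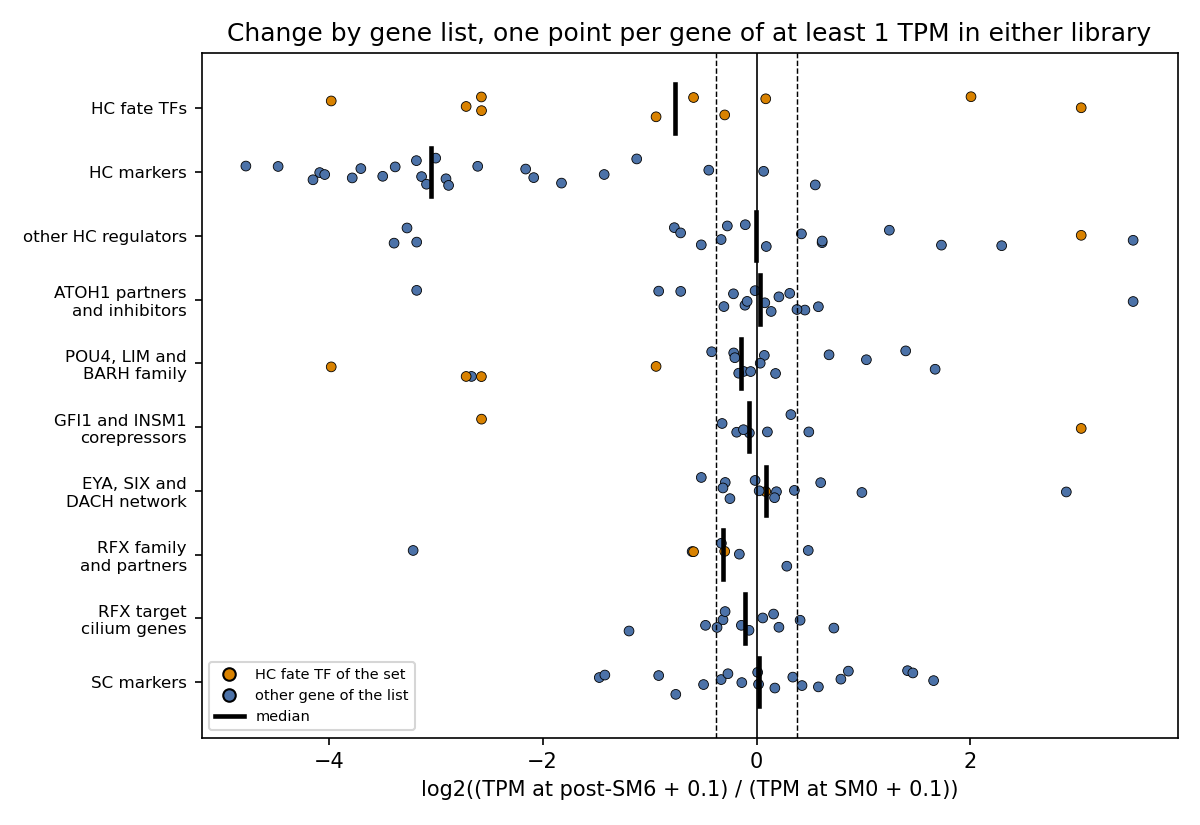
Log2 change from SM0 to post-SM6 (x axis) of each gene with at least 1 TPM in either library, by gene list (rows, vertical position within a row is random), with medians as bars and dashed lines at a fold of 1.3. The HC fate TFs (orange) range from -3.98 to 3.04, the HC markers lie mostly far to the left with a median of -3.04, and the other 8 lists shown have medians between -0.31 and 0.09; the neuron, glial, fibroblast and leukocyte lists are not plotted.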

How the data were processed

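Each time point has 1 library of 50 pooled BPs, so no test was made. Per the labels and the study's methods, the authors removed ribosomal reads with Bowtie2 2.1.0, aligned the rest to GRCg6a with STAR 2.7.1a, estimated expression with RSEM 1.3.0 and deposited it as TPM, in which reads that fit related genes are divided by estimation.

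Rows were found by symbol, or by the RefSeq symbol (GRCg7b) of the same gene ID. RefSeq coordinates were not used, because the builds differ. Members and the 13 other gene lists were chosen with earlier results of these data known. Named genes are all members, genes of the family lists, the highest and lowest of each list, and the 3 list genes nearest to each member in log2 change. ESPN, STMN2, other cell type markers outside this rule and those of the HC regulator list were singled out after their values were seen. Some list genes are not reported here by value but were kept in the counts and medians. Protein and promoter sequences were not analysed here. Alternatives were pseudocounts of 1 and 0.01, other minimums, a fold of 2, summing the POU4F3 IDs, scaling by the median ratio over genes whose mean reached 10 TPM, and TPM without the 10 most abundant genes. Lists without the members were added after seeing the data. The code was tested on simulated data. Python 3.11.15, numpy 2.4.6, pandas 2.3.3 and matplotlib 3.10.9 were used.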

Additional observations from a re-analysis of the deposited data

How the results depend on the processing

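All 40 alternative values of the members' log2 changes, over both other pseudocounts and both rescalings, kept their direction and their side of the fold of 1.3. The widest ranges were those of INSM1, from 2.49 to 3.11, and BARHL1, from -2.79 to -2.18, both with low TPM in a library. ATOH1 ranged from 1.98 to 2.04, and RFX3 from -0.32 to -0.26. The count of higher members was 2 in every alternative. That of lower members was 6, except 4 with a fold of 2 and 5 with the TPM of the POU4F3 IDs summed. The median of all genes moved from -0.02 to 0.01 with the median ratio and to -0.05 without the 10 most abundant genes. Of the list medians, that of other HC regulators, INSM1 included, went from -0.01 to 0.42 and that of glial genes to -0.41 with a mean TPM of at least 5, and that of neuron genes to -0.99 with a pseudocount of 1. Fewer genes were tested in the first of these settings. No paired analysis was possible because each time point has 1 library. Without replicates no spread can be given, and read counts, which would give counting error, were not analysed here.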

Other observations

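Outside the lists above, 2 further families were looked up after the data were seen. Of 18 proneural and related bHLH genes, ATOH1 among them, 5 reached 1 TPM in a library. ATOH8, the other member of the ATOH group that was detected above 1 TPM, had 20.8 TPM before and 20.0 TPM after SM, and ATOH7 was listed at 0 in both. BHLHE23 had 1.38 and 4.26 TPM, a log2 change of 1.56. NEUROG1, which specifies the neurons of the mouse inner ear, was listed at 0 in both libraries.

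Of 10 gene IDs with a POU name outside the POU4 group, 5 reached 1 TPM. The ID named POU2F3, which RefSeq calls CCDC160, was below 1 TPM in both libraries. POU3F4, whose human orthologue is an X-linked deafness gene and which in the mouse acts in the mesenchyme around the cochlea, had 0.93 TPM before and 4.36 TPM after SM, a log2 change of 2.11. POU3F2 had 17.6 and 4.78 TPM, a log2 change of -1.86, and POU3F3 had 36.7 and 29.4 TPM. Both directions were thus present within the POU3 group. The fibroblast genes, higher at post-SM6 in all 10 cases, moved with POU3F4, and their part in its value was not tested.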
